A study of Mus musculus with 12 samples.

Results

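The genes described here make cholesterol and fatty acids or export cholesterol, and they were followed in follicular B cells of the mouse spleen, the B cells that circulate through its follicles. They were chosen by name from the known pathways: 17 enzymes of the sterol pathway, 6 genes of sterol sensing and its regulation, 9 enzymes of fatty acid synthesis and desaturation, and 3 genes switched on by the liver X receptors (LXR). Of these 35 genes, 34 had counts among the 24046 symbols measured, and all 34 passed the filter on low counts. Idi1, an isomerase of the sterol pathway, was not analysed here. Messenger RNA was sequenced from B cells sorted from spleens of 3 Jmjd1c KO and 3 WT mice. Each animal gave 1 library after 2 h of anti-IgM, which cross-links the antigen receptor of the cells, and 1 library at 0 h. The 4 groups were thus Jmjd1c KO at 2 h, Jmjd1c KO at 0 h, WT at 2 h and WT at 0 h, with 3 libraries each, and a batch number from 1 to 3 was shared by the groups. Age, sex, strain, the deleted stretch of Jmjd1c, the cells in which it was deleted and the amount of anti-IgM were not given in the sources used.

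Cells keep their sterol level with a feedback loop. When membrane sterol is low, the escort protein SCAP carries the transcription factor precursors SREBP1 and SREBP2, encoded by Srebf1 and Srebf2, out of the endoplasmic reticulum, and the cleaved factors switch on the genes of sterol and fatty acid synthesis. The INSIG proteins hold SCAP back when sterol is plentiful. Oxidised sterols activate LXR, which raises the exporters ABCA1 and ABCG1 and the ubiquitin ligase encoded by Mylip, which removes lipoprotein receptors. Lymphocytes that leave rest need new membrane before they divide.

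The sequences before the transcription start are shown for 7 genes that the results turn on: sterol genes that rose (Hmgcs1, Cyp51, Msmo1, Insig1), 1 sterol enzyme whose level was not called as changed (Nsdhl), the fatty acid synthase gene Fasn, and Mylip, which fell. Each is the 250 bases upstream of the RefSeq start in GRCm38.p6, 5′ to 3′ on the gene's strand. Capitals mark the letters TCACNCCAC (a form of the sterol regulatory element), CACGTG (an E-box) and CCAAT, on either strand, so that ATTGG is CCAAT read on the other strand. The windows are chr13:119690101-119690350 (plus strand) for Hmgcs1, chr5:4104698-4104947 (minus) for Cyp51, chr8:64733579-64733828 (minus) for Msmo1, chr5:28071162-28071411 (plus) for Insig1, chrX:72918271-72918520 (plus) for Nsdhl, chr11:120824548-120824797 (minus) for Fasn and chr13:45389492-45389741 (plus) for Mylip.
Hmgcs1: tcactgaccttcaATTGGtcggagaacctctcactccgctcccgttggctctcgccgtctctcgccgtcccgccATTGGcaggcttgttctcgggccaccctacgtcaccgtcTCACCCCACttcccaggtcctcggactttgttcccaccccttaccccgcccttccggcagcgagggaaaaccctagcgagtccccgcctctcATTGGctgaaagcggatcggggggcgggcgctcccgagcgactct
Cyp51: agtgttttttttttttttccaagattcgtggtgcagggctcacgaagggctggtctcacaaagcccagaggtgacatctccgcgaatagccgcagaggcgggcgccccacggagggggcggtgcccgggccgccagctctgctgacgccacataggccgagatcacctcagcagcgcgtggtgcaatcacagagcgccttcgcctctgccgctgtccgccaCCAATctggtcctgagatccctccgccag
Msmo1: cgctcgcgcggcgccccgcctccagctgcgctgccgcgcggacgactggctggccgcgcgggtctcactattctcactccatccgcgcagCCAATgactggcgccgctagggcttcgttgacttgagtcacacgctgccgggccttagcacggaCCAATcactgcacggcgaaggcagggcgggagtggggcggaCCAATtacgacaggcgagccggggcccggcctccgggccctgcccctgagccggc
Insig1: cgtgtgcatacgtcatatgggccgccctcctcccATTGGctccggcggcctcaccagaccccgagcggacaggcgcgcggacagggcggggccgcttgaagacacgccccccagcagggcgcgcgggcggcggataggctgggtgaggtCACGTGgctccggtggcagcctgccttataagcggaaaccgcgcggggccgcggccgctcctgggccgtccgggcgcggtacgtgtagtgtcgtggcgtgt
Nsdhl: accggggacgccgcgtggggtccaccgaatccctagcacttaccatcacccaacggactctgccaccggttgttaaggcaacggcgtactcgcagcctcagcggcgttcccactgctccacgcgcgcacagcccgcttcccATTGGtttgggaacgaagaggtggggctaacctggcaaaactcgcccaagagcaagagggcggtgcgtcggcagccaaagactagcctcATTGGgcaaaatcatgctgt
Fasn: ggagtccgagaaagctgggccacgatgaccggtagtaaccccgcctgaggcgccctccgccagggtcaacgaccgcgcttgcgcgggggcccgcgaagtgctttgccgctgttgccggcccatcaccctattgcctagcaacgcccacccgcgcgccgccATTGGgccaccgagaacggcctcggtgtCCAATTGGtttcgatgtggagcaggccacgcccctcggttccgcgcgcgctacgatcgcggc
Mylip: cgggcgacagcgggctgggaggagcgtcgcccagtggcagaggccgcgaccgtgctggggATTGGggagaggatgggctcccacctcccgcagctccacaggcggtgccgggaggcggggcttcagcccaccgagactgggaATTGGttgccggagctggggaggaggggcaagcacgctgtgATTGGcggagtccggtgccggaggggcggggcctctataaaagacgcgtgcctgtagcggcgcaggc

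The Hmgcs1 window was the only one among the genes described here that held TCACNCCAC, with 1 match beside 3 of CCAAT. Msmo1 held 3 matches of CCAAT, Fasn 3 and Mylip 3, while Nsdhl held 2 and Cyp51 1. The capitals of Fasn include CCAATTGG, in which CCAAT on one strand and ATTGG overlap. Insig1 held 1 E-box and 1 CCAAT. Windows were found for 27 of the 35 genes, and for Sqle, Fdft1, Fdps, Stard4, Scd1, Scd2, Fads1 and Abcg1 none is shown. Several genes had more than 1 start, so there were 35 windows, of which 21 held CCAAT (60%), against 33.8% of all 32851 windows of this length. CACGTG stood in 7 (20%), against 6.02% of all windows, and TCACNCCAC in 1 (2.86%), against 1.05%. The GC box GGGCGG, searched on both strands and not capitalised, stood in 25 windows (71.4%), against 32.7% of all windows. The LXR direct repeat, AGGTCA repeated with 4 bases of any kind between the copies, stood in 0 windows, against 0.0152% of all windows. Among the 14 sterol enzymes with a window, 13 held CCAAT, and these included Nsdhl, Ebp and Mvk, whose levels were not called as changed. A match describes the letters in these windows and is not a measured binding site.

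Total counts lay between 5666013 and 14153396 per library. Rn45s, the 45S ribosomal RNA precursor, took 52.3% of the counts of KO 2 h replicate 1 and 24.8% of WT 2 h replicate 1, 12.9% to 15.5% in batch 2, and at most 1.09% in the other 6 libraries. Mki67, a marker of dividing cells, was at 529 CPM (scaled counts, by TMM) in KO 2 h replicate 1, and between 8.81 and 138 CPM in the other 11 libraries. Jmjd1c was lower in KO without overlap at both times, at 208, 213 and 199 CPM in KO against 322, 294 and 269 CPM in WT at 2 h, and at 230.5, 236 and 196 CPM in KO against 359.7, 326 and 288 CPM in WT at 0 h. Neither difference was called in edgeR, at -0.52 ± 0.13 (log2, SE, adjusted p = 0.887) at 2 h and -0.56 ± 0.13 (adjusted p = 0.9999) at 0 h. In a fit chosen after seeing the data, blocked by batch and lacking the batch 1 libraries of 2 h, Jmjd1c was called lower at 0 h (adjusted p = 0.0218 in edgeR and adjusted p = 3.39e-07 in DESeq2), and at 2 h by DESeq2 (adjusted p = 0.0128) but not edgeR. Of 9 follicular B cell markers, 8 had counts, and their summed level was 2705 to 4633 CPM in KO and 2954 to 4194 CPM in WT at 2 h, against 5107 to 5873 CPM in KO and 4463 to 5582 CPM in WT at 0 h. In bulk RNA, fewer cells of a type and less RNA per cell cannot be told apart.

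Resting cells were compared gene by gene on a scale per length, CPM per kilobase of exon (kb). In WT cells at 0 h the highest level of all was that of Scd1, a stearoyl-CoA desaturase that puts the first double bond into fatty acids, at 268 ± 31.2 CPM per kb (SD, n = 3). Mylip followed at 101 ± 5.05 CPM per kb and Abca1 at 74.97 ± 5.84 CPM per kb, each below the one before by more than their spread. Srebf2 at 46.9 ± 3.42 CPM per kb and Acly, the ATP citrate lyase that makes cytosolic acetyl-CoA, at 45.7 ± 4.44 CPM per kb did not differ beyond their spread. The sterol enzymes lay lower: Hmgcs1, which makes HMG-CoA, had the highest mean of them at 11.5 ± 2.65 CPM per kb and Lss, the lanosterol synthase, the lowest at 0.899 ± 0.117 CPM per kb. Hmgcs1 did not differ beyond their spread from Pmvk at 9.64 ± 1.38 or Cyp51 at 8.52 ± 1.32 CPM per kb. Neighbours in the range from Hsd17b7 at 3.43 ± 0.736 to Stard4 at 2.85 ± 0.797 CPM per kb, with Msmo1, Fdft1, Sqle, Dhcr7 and Fdps between them, did not differ beyond their spread. The desaturases Fads1, at 0.661 ± 0.315 CPM per kb, and Fads2, at 0.252 ± 0.356 CPM per kb, closed the order. Fads2 had 0 counts in WT 0 h replicate 3, which allows up to 0.183 CPM. After 2 h the order was different. In WT cells the mean of Insig1 stood at 56.2 ± 19.7 CPM per kb, above that of Mylip at 30.2 ± 5.30 CPM per kb. WT 2 h replicate 1 did not have this order, with 109 CPM of Insig1 and 114 CPM of Mylip. Hmgcs1, at 41.3 ± 12.3 CPM per kb in WT, did not differ from Mylip beyond their spread. In KO cells Insig1 stood at 57.8 ± 21.8 CPM per kb and Hmgcs1 at 44.02 ± 11.96 CPM per kb, above Mylip at 22.7 ± 3.99 CPM per kb.

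The response to 2 h of anti-IgM was read in KO and in WT cells from 1 fit across 12242 genes. There was no library kept for 2 h without anti-IgM, so time in culture and receptor cross-linking cannot be told apart. Most sterol enzymes rose in both genotypes, and the 3 LXR genes were lower at 2 h in every animal. In KO cells 13 of the 34 went up and 3 down by the test (adjusted p under 0.05), where 14.1% of all genes tested were called higher and 13% lower (27.1% in either direction). In WT cells 12 were called higher and 1 lower, where 10.7% of all genes were called higher and 9.06% lower (19.8% in either direction). All 12 genes called higher in WT were also called higher in KO, and Mylip was called lower in both.

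Of the 16 sterol enzymes with counts, 10 were called higher at 2 h in KO and 9 in WT, and 0 lower in either. Their median log2 change was 0.997 in KO and 1.05 in WT, while the median over all genes was 0.04 in KO and 0.01 in WT. Within each animal the median of the 16 was 0.86, 1.25 and 0.95 (log2) in KO replicates 1 to 3 and 0.71, 1.19 and 1.20 in WT replicates 1 to 3. Batch 3 gave 0.95 and 1.20 of these, and its 4 libraries had at most 0.624% of their counts on Rn45s. In the following, the 3 values of a group are CPM in replicates 1 to 3, and gene positions are those of GRCm38.

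Hmgcs1 (chr13:119690379-119708260), the HMG-CoA synthase of the mevalonate pathway, had 142, 249.7 and 215 CPM in KO at 2 h, against 51.7, 50.9 and 74.6 CPM in KO at 0 h. WT cells had 129.7, 197 and 242 CPM of Hmgcs1 at 2 h, against 43.9, 48.2 and 66.8 CPM at 0 h. In every animal the 2 h value was above the 0 h value, and the groups of the 2 times did not overlap in either genotype. On the log2 scale Hmgcs1 rose by 1.78 ± 0.28 in KO (SE, adjusted p = 0.000975) and 1.84 ± 0.28 in WT (adjusted p = 0.00113). Sqle (chr15:59315077-59331192), the squalene epoxidase, had 66.3, 121 and 89.2 CPM in KO at 2 h, against 19.1, 24.2 and 27.1 CPM in KO at 0 h. Its WT values were 59.5, 97.2 and 120.0 CPM at 2 h, against 13.6, 16.9975 and 20.0005 CPM at 0 h. Every 2 h library lay above every 0 h library, and the KO and WT values of 2 h were interleaved. The log2 change was 1.98 ± 0.28 in KO (SE, adjusted p = 0.000571) and 2.45 ± 0.29 in WT (adjusted p = 0.000295).

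Cyp51 (chr5:4081145-4104746), the lanosterol demethylase, had 127, 208 and 190.2 CPM in KO at 2 h, against 37.9953, 44.9 and 55.7 CPM in KO at 0 h. The WT libraries held 99.1, 155 and 203 CPM at 2 h, against 31.8, 37.5 and 43.5 CPM at 0 h. Replicate 1 was the lowest 2 h library in both genotypes, yet lay above all 0 h libraries. The rise was 1.93 ± 0.27 in KO (log2, SE, adjusted p = 0.000515) and 2.02 ± 0.27 in WT (adjusted p = 0.000584). Msmo1 (chr8:64718139-64733792), a methylsterol oxidase, had 67.6, 79.9 and 94.8 CPM in KO at 2 h, against 19.4, 19.2 and 30.9 CPM in KO at 0 h. In WT it had 46.2, 59.5 and 87.6 CPM at 2 h, against 17.1, 15.3 and 26.7 CPM at 0 h. The times again stood apart without overlap, with replicate 1 the lowest at 2 h in both genotypes. On the log2 scale Msmo1 rose by 1.81 ± 0.29 in KO (SE, adjusted p = 0.00106) and 1.70 ± 0.29 in WT (adjusted p = 0.00205).

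Mvd (chr8:122433601-122443422), the mevalonate diphosphate decarboxylase, had 16.2, 27.6 and 23.8 CPM in KO at 2 h, against 8.40, 7.92 and 9.06 CPM in KO at 0 h. WT cells had 15.2, 24.6 and 26.9 CPM of Mvd at 2 h, against 6.90, 7.84 and 10.4 CPM at 0 h. Each 2 h library was above every 0 h library. The log2 change was 1.43 ± 0.26 in KO (SE, adjusted p = 0.00212) and 1.40 ± 0.26 in WT (adjusted p = 0.00308). Fdft1 (chr14:63145150-63179578), the squalene synthase, had 26.04, 35.1 and 34.7 CPM in KO at 2 h, against 14.5, 13.01 and 17.99 CPM in KO at 0 h. Its WT values were 21.2, 27.8 and 34.3 CPM at 2 h, against 12.5, 11.3 and 15.4 CPM at 0 h. The values of 2 h did not overlap those of 0 h in either genotype. The rise was 1.08 ± 0.21 in KO (log2, SE, adjusted p = 0.00296) and 1.08 ± 0.21 in WT (adjusted p = 0.00408).

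**Figure D1:**
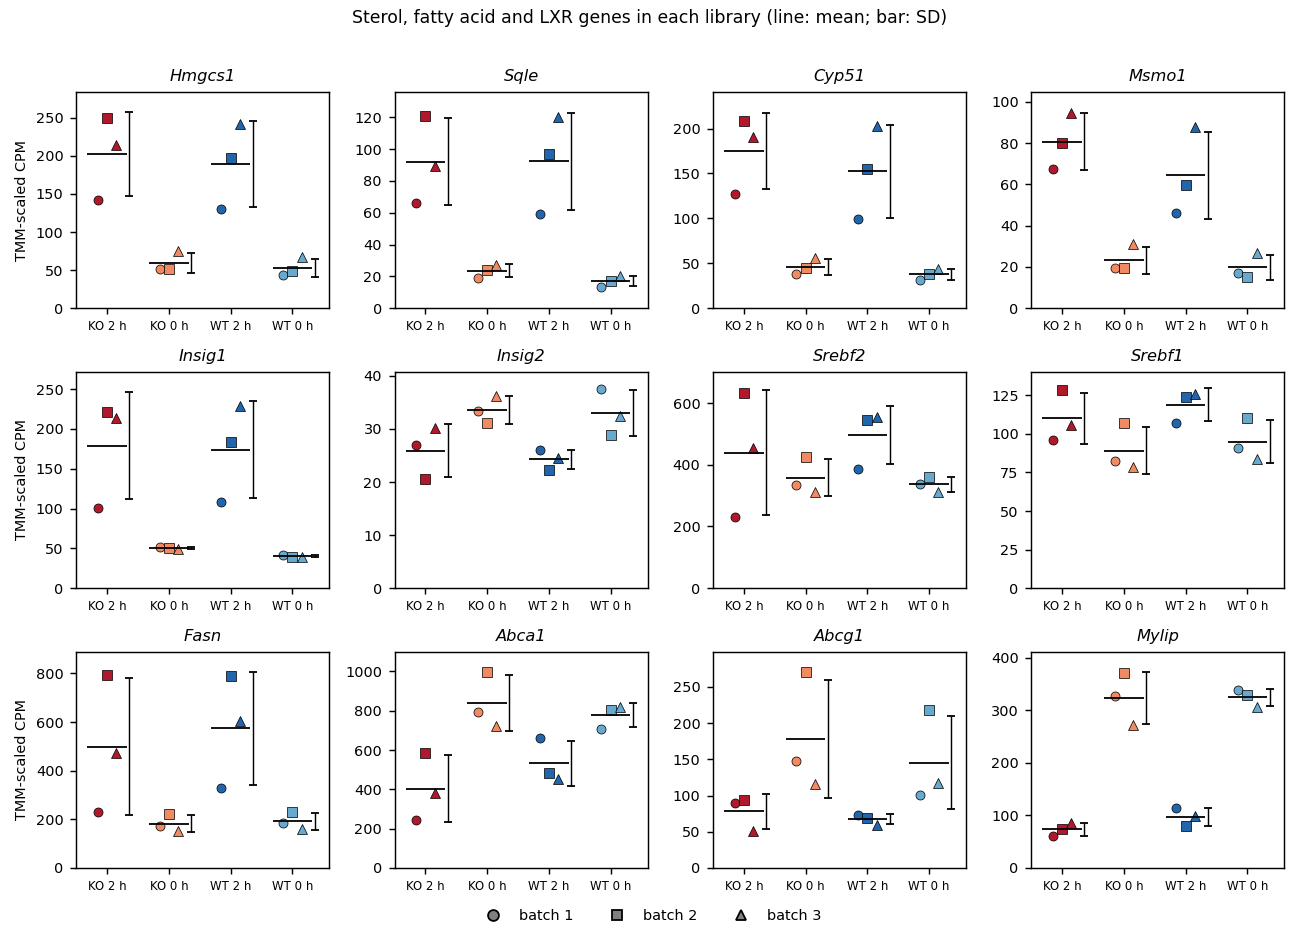
Level of 12 genes in each library, as TMM-scaled CPM on linear axes that start at 0; the marker shape gives the batch, the line the mean and the bar the SD of 3 libraries. Hmgcs1, Sqle, Cyp51, Msmo1 and Insig1 are higher in every 2 h library than in any 0 h library of the same genotype, while Mylip is lower.

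Of the other sterol enzymes, 4 were called higher at 2 h in KO and 3 of these in WT. Fdps, the farnesyl diphosphate synthase, rose by 1.53 in KO and 1.33 in WT (log2), and Lss by 1.45 in KO and 1.41 in WT. Sc5d, a sterol desaturase of the last steps, rose by 0.91 ± 0.27 in KO (adjusted p = 0.0266) and 1.02 ± 0.27 in WT (adjusted p = 0.0201). The Sc5d call was lost without any 1 of KO 0 h replicates 1 to 3, KO 2 h replicate 2 or 3 (adjusted p = 0.0725 to 0.0819), WT 0 h replicates 1 to 3 or WT 2 h replicate 3 (adjusted p = 0.0518 to 0.0998). The WT call of Lss was lost at adjusted p = 0.0504 when WT 0 h replicate 1 was left out, and at adjusted p = 0.0511 when WT 2 h replicate 3 was. Hsd17b7, a ketosteroid reductase of the pathway, was called in KO at 0.91 ± 0.29 (adjusted p = 0.0394) and not in WT at 0.84 ± 0.29 (adjusted p = 0.0647), and the difference between the genotypes was 0.07 ± 0.41 and was not called. The KO call of Hsd17b7 was lost without KO 0 h replicate 1, 2 or 3 or KO 2 h replicate 2 or 3 (adjusted p = 0.0622 to 0.138).

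In 6 enzymes no change was called. These were Acat2, which joins acetyl-CoA units, the kinases Mvk and Pmvk, and Ebp, Nsdhl and Dhcr7 of the later steps. Their log2 changes lay between -0.04 for Pmvk and 0.31 for Mvk in KO, and between -0.22 for Pmvk and 0.35 for Dhcr7 in WT. Nsdhl, for example, had 11.8, 10.4 and 13.1 CPM in KO at 2 h, against 11.3, 11.9 and 12.8 CPM in KO at 0 h. WT cells had 9.18, 11.96 and 13.6 CPM of it at 2 h, against 11.7, 9.28 and 11.5 CPM at 0 h. The values of the 2 times were interleaved in both genotypes. Their standard errors were between 0.19 for Acat2 and 0.30 for Mvk in KO on the log2 scale.

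**Figure D2:**
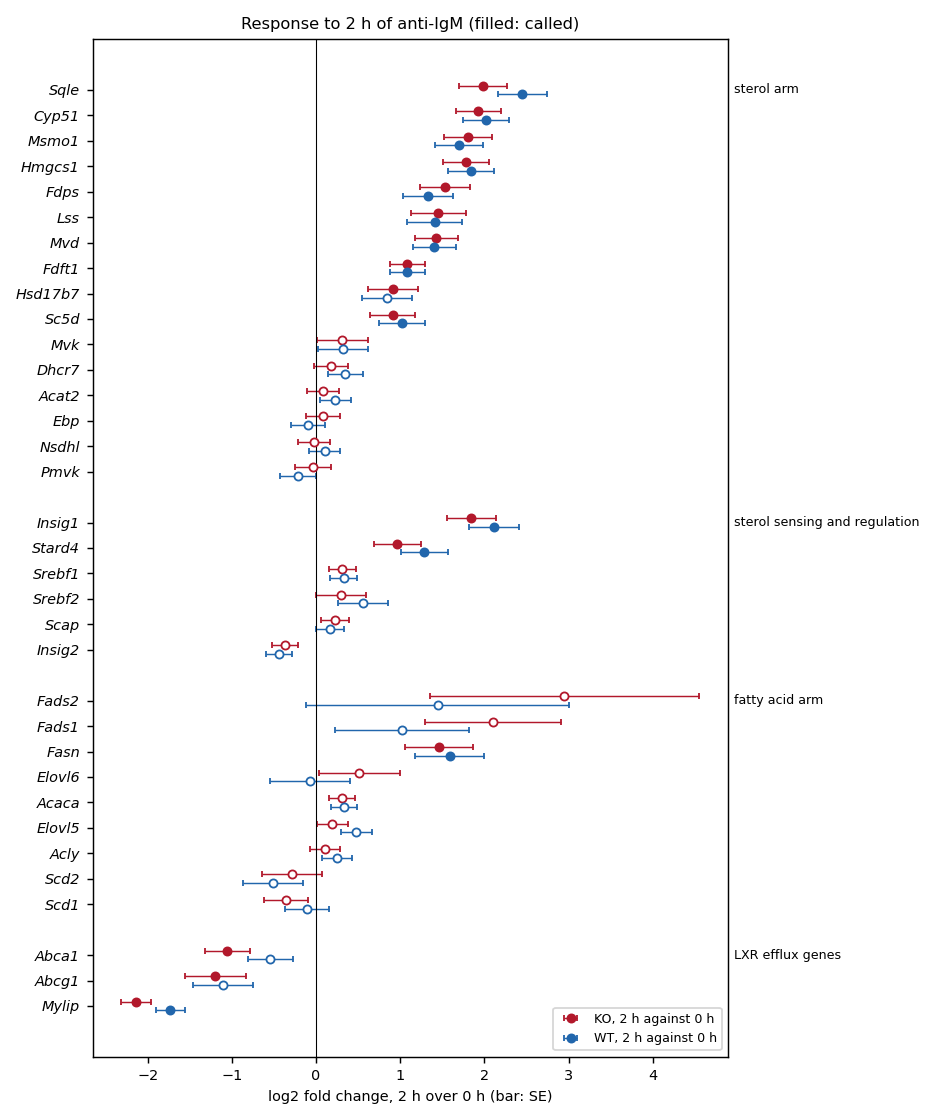
Log2 fold change of the 34 genes, 2 h over 0 h, with its SE as a bar, in KO (red) and WT (blue); filled circles were called at an adjusted p under 0.05. Sterol enzymes run from Sqle at 1.98 in KO and 2.45 in WT down to Pmvk at -0.04 in KO and -0.22 in WT, and the 3 LXR genes lie left of 0.

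Among the regulators, Insig1 rose and the genes of the SREBP factors themselves were not called. Insig1 (chr5:28071363-28078662), an SREBP target whose product holds SCAP in the endoplasmic reticulum, had 101, 222 and 213 CPM in KO at 2 h, against 51.1, 50.3 and 48.7 CPM in KO at 0 h. The WT libraries held 109, 184 and 229 CPM at 2 h, against 41.97, 39.4 and 39.5 CPM at 0 h. The 0 h libraries were tightly grouped, and replicate 1 was the lowest 2 h library in both genotypes. On the log2 scale Insig1 rose by 1.85 ± 0.30 in KO (SE, adjusted p = 0.00111) and 2.11 ± 0.30 in WT (adjusted p = 0.000789). Stard4, a carrier that moves sterol between membranes, rose by 0.96 ± 0.28 in KO (adjusted p = 0.0233) and 1.29 ± 0.28 in WT (adjusted p = 0.00746). The KO call of Stard4 was lost without KO 0 h replicate 1, 2 or 3 or KO 2 h replicate 2 or 3 (adjusted p = 0.0524 to 0.0911).

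Insig2 (chr1:121304353-121332589), the paralogue of Insig1, had 27.1, 20.5 and 30.2 CPM in KO at 2 h, against 33.5, 31.1 and 36.3 CPM in KO at 0 h. In WT it had 25.9, 22.3 and 24.6 CPM at 2 h, against 37.6, 28.9 and 32.5 CPM at 0 h. It was lower at 2 h than at 0 h in all 6 animals. The log2 difference was -0.37 ± 0.15 in KO (adjusted p = 0.0939) and -0.44 ± 0.15 in WT (adjusted p = 0.0633), so neither was called. With batch blocked, both were called lower (adjusted p = 0.0293 in KO and adjusted p = 0.0172 in WT), and likewise with animal blocked (adjusted p = 0.0395 in KO and adjusted p = 0.0309 in WT).

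Srebf2 (chr15:82147181-82205379), which encodes the SREBP that mainly drives sterol genes, had 229, 632 and 455 CPM in KO at 2 h, against 335, 426 and 312 CPM in KO at 0 h. WT cells had 387, 544 and 555 CPM of Srebf2 at 2 h, against 337, 362 and 313 CPM at 0 h. KO 2 h replicate 1, the library with 52.3% Rn45s, was the lowest of all 12, and the other 5 libraries of 2 h were above those of 0 h in the same animal. The log2 difference was 0.30 ± 0.29 in KO (adjusted p = 0.469) and 0.56 ± 0.29 in WT (adjusted p = 0.222). Without both 2 h libraries of batch 1 Srebf2 was called higher in KO (adjusted p = 0.0248) and in WT (adjusted p = 0.0129), and without KO 2 h replicate 1 alone in KO (adjusted p = 0.035). The part of Rn45s in this difference was not tested. Srebf1 (chr11:60199089-60222581), which encodes the SREBP that mainly drives fatty acid genes, had 96.1, 128 and 106 CPM in KO at 2 h, against 82.3, 107 and 78.3 CPM in KO at 0 h. Its WT values were 107, 124 and 126 CPM at 2 h, against 91.1, 111 and 83.5 CPM at 0 h. All 6 animals were higher at 2 h, and the values of the 2 times overlapped in both genotypes. Srebf1 differed by 0.31 ± 0.16 in KO (adjusted p = 0.17) and 0.33 ± 0.16 in WT (adjusted p = 0.181). Scap differed by 0.23 ± 0.16 in KO and 0.17 ± 0.16 in WT and was not called. In the fit blocked by batch and without the batch 1 libraries of 2 h, chosen after seeing the data, Srebf1 (adjusted p = 0.026 in KO and adjusted p = 0.0232 in WT) and Scap (adjusted p = 0.00748 in KO and adjusted p = 0.0331 in WT) were called higher.

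In the fatty acid arm, 1 of 9 genes was called higher in each genotype, near the 14.1% of all genes in KO and the 10.7% in WT, and it was Fasn, the fatty acid synthase. The median log2 change of the 9 was 0.31 in KO and 0.34 in WT. Fasn (chr11:120805846-120824547) had 229, 792 and 473 CPM in KO at 2 h, against 174, 220.2 and 152 CPM in KO at 0 h. The WT libraries held 329, 789 and 604 CPM at 2 h, against 185, 230.1 and 159 CPM at 0 h. Replicate 1 was again the lowest at 2 h in both genotypes, and the groups of the 2 times did not overlap. The log2 change was 1.46 ± 0.41 in KO (SE, adjusted p = 0.0205) and 1.59 ± 0.41 in WT (adjusted p = 0.0178). The call was lost without KO 0 h replicate 1 or 3 or KO 2 h replicate 2 (adjusted p = 0.0704 to 0.0912), and without WT 0 h replicate 1 or 3 or WT 2 h replicate 2 or 3 (adjusted p = 0.0513 to 0.0877). Within each animal Fasn was 0.40, 1.84 and 1.63 higher at 2 h in KO replicates 1 to 3 and 0.83, 1.78 and 1.93 higher in WT replicates 1 to 3, on a scale of log2(CPM + 0.5).

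Acaca, the acetyl-CoA carboxylase that feeds Fasn, differed by 0.31 ± 0.16 in KO and 0.34 ± 0.15 in WT. Acly differed by 0.10 ± 0.18 in KO and 0.25 ± 0.18 in WT. Elovl5, an elongase of unsaturated fatty acids, differed by 0.19 ± 0.18 in KO and 0.48 ± 0.18 in WT. None of these 3 was called in either genotype in edgeR on all 12 libraries without a block. With batch blocked, Acaca was called higher in KO (adjusted p = 0.0435) and also in WT, while Acly and Elovl5 were called in neither. Elovl5 was called higher in KO without KO 2 h replicate 1 (adjusted p = 0.041). In WT it was called by DESeq2 (adjusted p = 0.044), from the WT groups alone (adjusted p = 0.017) and when both batch 1 libraries of 2 h were left out (adjusted p = 0.0269). Leaving out those libraries also called Acly higher in WT (adjusted p = 0.0421). With the batch block added to that, a choice made after seeing the data, both were called in KO as well (adjusted p = 0.00979 for Elovl5 and adjusted p = 0.0119 for Acly).

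Neither stearoyl-CoA desaturase was called between the times in edgeR on all 12 libraries. Scd1 had 433, 1059 and 943 CPM in KO at 2 h, against 1080.0, 1093 and 948 CPM in KO at 0 h. The WT values were 1083, 1335 and 1237 CPM at 2 h, against 1168, 1472 and 1290.2 CPM at 0 h. All 6 animals were lower at 2 h, with log2 differences between -0.14 and -0.01 in 5 of them and -1.32 in KO replicate 1. On the log2 scale the difference was -0.36 ± 0.26 in KO (adjusted p = 0.324) and -0.10 ± 0.26 in WT (adjusted p = 0.829). Scd2, its close paralogue, had 114, 60.2 and 34.8 CPM in KO at 2 h, against 86.97, 96.2 and 65.5 CPM in KO at 0 h. WT cells held 104, 108 and 68.2 CPM of it at 2 h, against 116, 170.2 and 112 CPM at 0 h. It was lower at 2 h in 5 of 6 animals, the exception being KO replicate 1. The log2 difference was -0.28 ± 0.36 in KO (adjusted p = 0.578) and -0.51 ± 0.35 in WT (adjusted p = 0.364). Blocked by batch and without the batch 1 libraries of 2 h, chosen after seeing the data, Scd2 was called lower at 2 h in KO (adjusted p = 2.46e-05 in edgeR and adjusted p = 8.26e-10 in DESeq2) and in WT (adjusted p = 0.000202 in edgeR and adjusted p = 7.93e-06 in DESeq2). The paralogues share sequence, and the treatment of reads that match both genes was not given in the sources used.

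Fads1 and Fads2, which desaturate polyunsaturated fatty acids, moved with Mki67 across libraries. Elovl6, an elongase of saturated ones, had 18.3 CPM in KO 2 h replicate 1, where Mki67 was highest, and 3.45 to 6.92 CPM in the rest. Fads1 had 30.8, 7.12 and 2.72 CPM in KO at 2 h, against 1.74, 4.75 and 2.67 CPM in KO at 0 h. In WT it had 9.85, 6.95 and 2.59 CPM at 2 h, against 1.67, 4.70 and 3.17 CPM at 0 h. The high values stood in batch 1 at 2 h and, less so, in batch 2 at both times. Fads2 lay between 0.309 and 14.9 CPM in KO and between 0.392 and 3.59 CPM in WT at 2 h, against 0.0666 to 2.04 CPM in KO and 0 to 2.17 CPM in WT at 0 h. Elovl6 lay between 4.14 and 18.3 CPM in KO and between 3.45 and 6.92 CPM in WT at 2 h, against 5.68 to 6.86 CPM in KO and 4.60 to 6.27 CPM in WT at 0 h. Over the 12 libraries Pearson's r with Mki67 on the scale log2(CPM + 0.5) was 0.95 for Fads1, 0.98 for Fads2 and 0.75 for Elovl6, and between -0.57 for Insig2 and 0.71 for Acat2 among the other 31. These points share their libraries and depth, the 2 libraries of an animal are not independent, and KO 2 h replicate 1 lies far from the rest. In edgeR on all 12 libraries none of the 3 was called in a time comparison, with log2 differences of 2.10 ± 0.81 in KO and 1.02 ± 0.79 in WT for Fads1, 2.95 ± 1.60 in KO and 1.44 ± 1.57 in WT for Fads2, and 0.51 ± 0.48 in KO and -0.07 ± 0.48 in WT for Elovl6. Fads1 was called higher in KO by DESeq2 (adjusted p = 0.0206) and without KO 2 h replicate 3 (adjusted p = 0.0196). The summed level of 7 markers of dividing and germinal centre cells was 41.9 to 856 CPM in KO and 38.9 to 230.3 CPM in WT at 2 h, against 43.6 to 123 CPM in KO and 31.0 to 168 CPM in WT at 0 h, and its part in these genes was not tested.

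**Figure D3:**
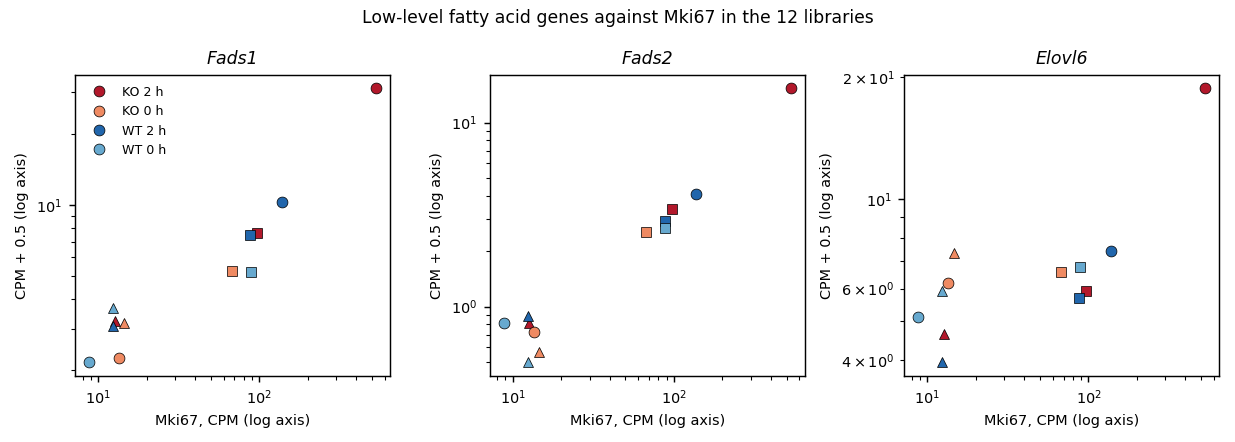
Fads1, Fads2 and Elovl6 (CPM + 0.5) against Mki67 (CPM) in the 12 libraries, both on log axes; colour gives the group and circles, squares and triangles batches 1, 2 and 3. KO 2 h replicate 1, with 529 CPM of Mki67, is at the upper right of each panel, and r is 0.95, 0.98 and 0.75.

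The 3 LXR genes were lower at 2 h than at 0 h in all 6 animals. All 3 were called lower in KO and 1, Mylip, in WT, where 13% of all genes were called lower in KO and 9.06% in WT. The difference in response between the genotypes was called for none of the 3. The median log2 change was -1.20 in KO and -1.11 in WT. Mylip (chr13:45389742-45412022) had 60.2, 73.8 and 85.99 CPM in KO at 2 h, against 328, 371 and 273 CPM in KO at 0 h. In WT it had 114, 80.2 and 98.8 CPM at 2 h, against 339, 329.6 and 307 CPM at 0 h. No 2 h library came near a 0 h library. It fell by 2.13 ± 0.18 in KO (log2, SE, adjusted p = 3.97e-05) and by 1.73 ± 0.17 in WT (adjusted p = 0.000151). The mean at 2 h was 0.226 times that at 0 h in KO and 0.301 times in WT.

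Abca1 (chr4:53030787-53159895), an exporter of cholesterol to lipid-poor apolipoproteins, had 245, 584 and 383 CPM in KO at 2 h, against 795, 999 and 723 CPM in KO at 0 h. WT cells had 663, 486 and 451 CPM of Abca1 at 2 h, against 707, 805 and 819 CPM at 0 h. The times did not overlap in either genotype. WT 2 h replicate 1 was the highest 2 h library and KO 2 h replicate 1 the lowest. The log2 difference was -1.05 ± 0.27 in KO (adjusted p = 0.0141) and -0.54 ± 0.27 in WT (adjusted p = 0.19). When both batch 1 libraries of 2 h were left out, its WT level was called lower (adjusted p = 0.012), as from the WT groups alone (adjusted p = 0.0333). The KO call was lost without KO 0 h replicate 2 (adjusted p = 0.0575) and from the KO groups alone (adjusted p = 0.067).

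Abcg1 (chr17:31057675-31117988), an exporter to lipoprotein particles, had 89.3, 94.05 and 50.7 CPM in KO at 2 h, against 148, 270.4 and 115 CPM in KO at 0 h. Its WT values were 73.6, 69.04 and 59.9 CPM at 2 h, against 100.4, 219 and 117 CPM at 0 h. Batch 2 was the highest 0 h library in both genotypes. On the log2 scale Abcg1 differed by -1.20 ± 0.36 in KO (adjusted p = 0.03) and -1.11 ± 0.36 in WT (adjusted p = 0.0515). Blocked by batch it was called lower in WT (adjusted p = 0.0108), as when blocked by animal (adjusted p = 0.0233), by DESeq2 (adjusted p = 0.0123) and from the WT groups alone (adjusted p = 0.0203). The KO call was lost when KO 0 h replicate 2 (adjusted p = 0.125) or KO 2 h replicate 3 (adjusted p = 0.0788) was left out, and from the KO groups alone (adjusted p = 0.0703). Macrophages express these exporters strongly. The summed level of 9 macrophage and monocyte markers was 19.5 to 38.9 CPM in KO and 18.9 to 26.8 CPM in WT at 2 h, against 18.3 to 40.0 CPM in KO and 15.2 to 45.9 CPM in WT at 0 h. Within each genotype these sums overlapped between the times, and 4 of the 9 markers passed the filter on low counts. No marker was at 0 in all 3 libraries of a group, but some were near it: C1qa had 1, 0 and 0 counts in KO at 2 h. The part of such cells in the LXR genes was not tested.

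Whether the response differed between KO and WT was tested with an interaction term. It was called for 0 of the 34 genes and for 0% of all genes in edgeR, with 39 of 12242 genes at an unadjusted p under 0.05 and 0 calls in DESeq2. The estimates ranged from -0.51 ± 0.38 for Abca1 to 1.51 ± 2.21 for Fads2 (log2, KO minus WT response). Among the sterol enzymes the lowest was -0.47 ± 0.39 for Sqle and the highest 0.20 ± 0.42 for Fdps. The median SE over the 34 genes was 0.38, so differences in response of this order could not be detected with 3 animals of each genotype.

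KO and WT cells were also compared at each time. At 2 h 0 of the 34 genes were called in edgeR, as were 0% of all genes, with 640 genes at an unadjusted p under 0.05 and 2 calls in DESeq2. At 0 h 0 of the 34 and 0% of all genes were called, with 91 genes at an unadjusted p under 0.05 and 1 call in DESeq2, and none of these DESeq2 calls was among the 34 genes. Without overlap between the libraries of the genotypes stood 1 of the 34 genes at 2 h, against 8.22% of all genes, and 4 of the 34 at 0 h, against 5.85% of all genes. At 2 h it was Scd1, lower in KO. At 0 h they were Insig1 and Sc5d, higher in KO, and Scd1 and Scd2, lower in KO.

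None of the sterol enzymes was called between genotypes. Their median log2 difference, KO minus WT, was 0.12 at 2 h and 0.11 at 0 h. At 2 h the values ran from -0.20 ± 0.21 for Dhcr7 to 0.33 ± 0.28 for Msmo1. At 0 h Sqle had the highest, 0.47 ± 0.28, and within batches 1 to 3 its KO level was 1.41, 1.42 and 1.36 times the WT level, against 1.11, 1.24 and 0.743 times at 2 h. Insig1 at 0 h differed by 0.31 ± 0.29, with KO at 1.22, 1.28 and 1.23 times WT within batches 1 to 3, against 0.931, 1.21 and 0.931 times at 2 h. Neither Sqle nor Insig1 was called. Mylip at 2 h differed by -0.41 ± 0.17 between KO and WT (adjusted p = 0.887), with KO at 0.526, 0.920 and 0.871 times WT within batches 1 to 3.

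**Figure D4:**
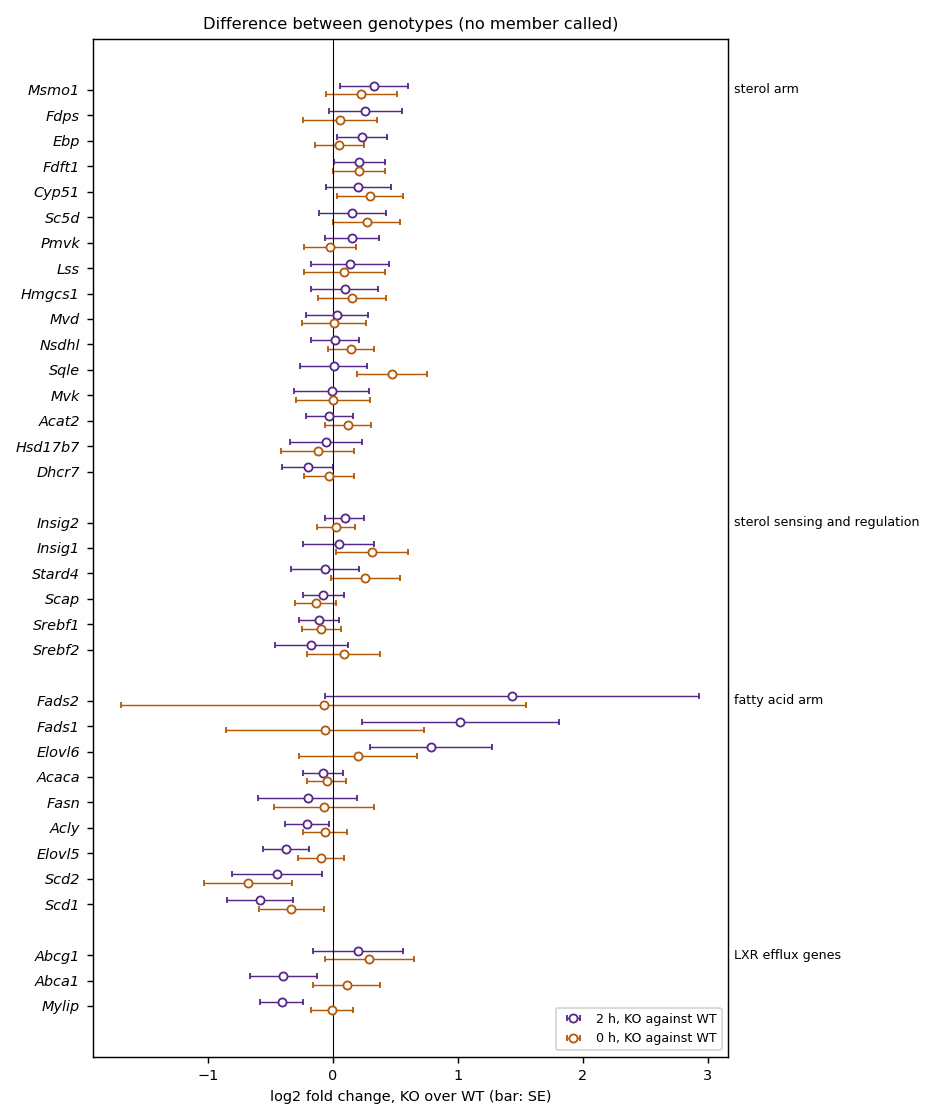
Log2 difference of the 34 genes between KO and WT, with its SE as a bar, at 2 h (purple) and 0 h (brown); no gene was called. Scd1 and Scd2 lie left of 0 at both times, and Fads1 and Fads2 have the widest bars at 2 h.

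The stearoyl-CoA desaturase pair had the lowest estimates in KO relative to WT. Scd1 was at 0.400, 0.793 and 0.762 times the WT level in KO within batches 1 to 3 at 2 h, and at 0.924, 0.742 and 0.735 times at 0 h. It was thus lower in KO in each batch at both times, and the log2 difference was -0.58 ± 0.26 at 2 h (adjusted p = 0.887) and -0.33 ± 0.26 at 0 h (not called). The 0.400 of batch 1 at 2 h came from libraries with 52.3% (KO) and 24.8% (WT) of their counts on Rn45s. Under 17 alternatives the 2 h difference of Scd1 lay between -0.82 and -0.28. Scd2 was at 1.10, 0.560 and 0.511 times the WT level in KO within batches 1 to 3 at 2 h, and at 0.751, 0.565 and 0.584 times at 0 h. It was lower in KO in 5 of the 6 pairs, the exception being batch 1 at 2 h, and the log2 difference was -0.45 ± 0.36 at 2 h (adjusted p = 0.887) and -0.68 ± 0.35 at 0 h (not called).

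In a fit chosen after seeing the data, which blocked by batch and left out the 2 libraries of batch 1 at 2 h, Scd2 was called lower in KO at both times. The value was -0.90 at 2 h (adjusted p = 0.0361), where 0.016% of all genes were called, and -0.67 at 0 h (adjusted p = 0.0209), where 0.0401% were called. DESeq2 on the same libraries, also blocked by batch, called it as well, at 2 h (adjusted p = 1.51e-06), where 0.128% of all genes were called, and at 0 h (adjusted p = 4.48e-06), where 0.144% were called. In these fits Scd2 was the only one of the 34 genes called between genotypes, and none of the other 15 settings tried at each time called it. The libraries left out are those with 52.3% and 24.8% of their counts on Rn45s, and their part in the difference was not tested.

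**Figure D5:**
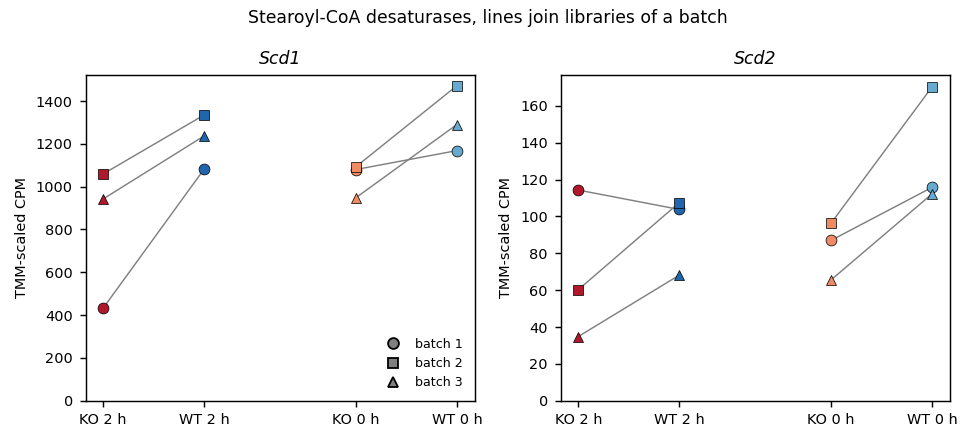
Scd1 and Scd2 in each library, as TMM-scaled CPM on linear axes that start at 0, with lines joining KO and WT libraries of the same batch and time. Scd1 is lower in KO in all 6 pairs and Scd2 in 5 of 6, the exception being batch 1 at 2 h.

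Related genes outside the 35 were read from the same fit. Of 23 other sterol pathway genes, 6 were called up and 4 down in KO at 2 h, and 5 up and 3 down in WT, where 27.1% of all genes were called in KO and 19.8% in WT. Tmem97, a sterol-regulated membrane protein, rose by 2.22 in KO and 1.87 in WT (log2). Aacs, the acetoacetyl-CoA synthetase, rose by 1.17 in KO and 1.13 in WT. Rnf145, a sterol-responsive ubiquitin ligase, fell by 1.48 in KO and by 1.26 in WT. Soat1, which esterifies cholesterol for storage, fell by 0.58 in KO and by 0.56 in WT.

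Of 25 other genes of fatty acid and phospholipid synthesis, 23 were tested, of which 6 were called higher and 2 lower in KO and 3 higher and 1 lower in WT, where 27.1% of all genes were called in KO and 19.8% in WT. Hsd17b12, a reductase of fatty acid elongation, rose by 0.77 in KO and 0.74 in WT, and Chka, the choline kinase of phospholipid synthesis, by 0.83 in KO and 0.77 in WT. Mid1ip1, an activator of acetyl-CoA carboxylase, fell by 0.50 in KO and by 0.66 in WT. Of 12 LXR and oxysterol genes, which include Srebf1, 10 were tested, and 1 was called higher and 2 lower in each genotype, against the same shares of all genes. Gpr183, a receptor for oxysterols that positions B cells, rose by 1.81 in KO and 1.82 in WT. Abca7, a lipid transporter, fell by 0.97 in KO and by 0.94 in WT, and Cyp27a1, which makes an oxysterol, by 1.62 in KO and by 1.43 in WT. Between genotypes 0 genes of these 3 lists were called at either time.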

How the data were processed

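Poly(A) RNA of sorted splenic follicular B cells was made into 12 libraries with the NEBNext Ultra kit, per the labels' protocols. Reads were aligned with STAR to mm10, per the submitters' processing notes. Not given in the sources used here are the counting tool, its annotation, strand setting and treatment of multi-mapping reads. Each deposited file held raw counts of 1 library by gene symbol. Reads of overlapping, antisense or near-identical genes could therefore not be told apart.

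The filterByExpr function kept 12242 genes, and library sizes were scaled with TMM factors between 0.522 and 1.20. All 12 libraries entered 1 quasi-likelihood model in edgeR 4.0.16 (R 4.3.3, limma 3.58.1) with a mean for each group, giving 5 contrasts. Tests were two-sided, p was adjusted over all genes by Benjamini-Hochberg, and adjusted p under 0.05 made a call. The SE was derived from the F statistic. The model was tested on simulated counts. Levels are TMM-scaled CPM, computed here from the deposited counts, and levels per kb used the exon union of GENCODE M21. A count of 0 allows up to 3 counts, or between 0.183 and 1.015 CPM, which covers counting error only. Promoter windows came from RefSeq, GRCm38.p6.

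The genes and lists were chosen with earlier results of these data known. Given in full were the 8 called genes with the smallest p in each time comparison, the 3 LXR genes, Srebf1, Srebf2, Insig1, Insig2, Scd1 and Scd2, and up to 5 called genes of each other list could be named. Some genes of these pathways are not reported here.

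The labels mark the batch number as shared, and both times of an animal carry it, so it paired the samples. Deviations from the group means correlated between -0.398 and 0.865 for libraries of the same batch from other animals, between -0.395 and 0.586 for the same animal, and between -0.764 and 0.623 otherwise. No pair of libraries of a group agreed within sampling noise (chi-square per degree of freedom of 13.96 or more). Alternatives were RLE size factors, other filters, DESeq2 1.42.0, batch or animal as a block, leaving out Rn45s, both 2 h libraries of batch 1 or each library in turn, and a fit of only the groups compared. A further 2, which combined the batch block with leaving out both 2 h libraries of batch 1, were chosen after seeing the data.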

Additional observations from a re-analysis of the deposited data

How the results depend on the processing

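No call of the 34 genes changed direction under any alternative. Of the 34 genes, 13 were called at 2 h in WT, and 10 to 14 when 1 library was left out, while 16 were called in KO, and 11 to 18 when 1 library was left out. With the batch as a replicate block 18 were called in KO and 17 in WT, where 3923 of all 12242 genes were called in KO and 3048 in WT. With the animal as a block 17 were called in KO and 16 in WT, where 3260 of all genes were called in KO and 2405 in WT. Beside those named above, Acaca among them, the batch block added Hsd17b7 in WT (adjusted p = 0.00327). The animal block added Hsd17b7 in WT too (adjusted p = 0.0126). Neither block ended a call. Hmgcs1, Sqle, Cyp51, Msmo1, Mvd, Fdft1, Fdps, Insig1 and Mylip were called in both genotypes under all 17 alternatives. From the KO groups alone Sc5d (adjusted p = 0.0546), Hsd17b7 (adjusted p = 0.0678) and Fasn (adjusted p = 0.0586) were not called. Neither were Abca1 (adjusted p = 0.067) and Abcg1 (adjusted p = 0.0703). Of all genes 1733 were called from the KO groups alone, against 3316. Over all genes the WT count was 2419, and 1278 to 2216 when 1 library was left out. The KO count over all genes was 3316, and 2251 to 3849 when 1 library was left out. In the setting chosen after seeing the data, which blocked by batch and left out the 2 libraries of batch 1 at 2 h, 24 of the 34 genes (23 in DESeq2) and 5205 of all genes (4221 in DESeq2) were called in WT, and 5516 of all genes in KO; between genotypes 1 of the 34 genes was called at each time by both tools, and of all genes 2 at 2 h and 5 at 0 h in edgeR and 16 at 2 h and 18 at 0 h in DESeq2. DESeq2 with the batch block alone called 17 genes at 2 h and 4 at 0 h, and without it 2 at 2 h and 1 at 0 h, and the cause was not tested. Depth limits the low genes most: the floor of KO 2 h replicate 1 was 1.015 CPM, above the level of Fads2 in several libraries.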
